A study of Mus musculus with 200 samples.

Results

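The striated muscle myosins considered here are 10 genes, 6 light chains (Myl1, Myl2, Myl3, Myl4, Myl7 and Mylpf) and 4 heavy chains (Myh3, Myh6, Myh7 and Myh8), chosen by symbol from the 22033 genes of the expression tables. All 10 were listed in both generations, and 9 of them reached a mean of 5 RPM (reads on the gene for every 1000000 reads on all genes) in F1 and in N2 embryos, the exception being Myl1. Each library was made from a single whole mouse embryo collected at E11.5 and freed of extra-embryonic material. F1 embryos came from reciprocal crosses of C57BL6/J (B6) and Castaneus (Cast), with the mother named first. There were 8 B6xCast embryos, 3 from an older litter with 58 and 63 somites (1 embryo had no somite number) and 5 from a younger litter with 48 to 50. There were also 8 CastxB6 embryos, 4 from a younger litter with 41 to 43 somites and 4 from an older litter with 46 to 48, each of these litters holding 1 embryo without a somite number. N2 embryos came from backcrosses to B6: 89 had a B6 mother and an F1 father, and 65 had an F1 mother and a B6 father, so that each carried a mixture of B6/B6 and B6/Cast chromosome segments. Somite numbers, which count the paired blocks of trunk mesoderm and serve as a clock of stage, were given for 147 of these 154 embryos and ran from 42 to 57 (median 49). Depth ranged from 15703888 to 38234229 reads on genes in F1 and from 245220 to 5370322 in N2, so that a single N2 embryo gives a much coarser value than a single F1 embryo. The N2 embryos fell into 29 litters and 14 sequencing lanes, and only 1 lane held embryos of both kinds of mother.

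Myosin II is the motor of the thick filament, built from a pair of heavy chains that each bind an essential and a regulatory light chain. Vertebrates use different forms in the atria, the ventricles and skeletal muscle, and change them as development proceeds. In the atria the regulatory light chain is Myl7 and the essential light chain Myl4, which is also used in the embryo outside the atria, including embryonic skeletal muscle. In the ventricles the regulatory light chain is Myl2 and the essential light chain Myl3, both of which slow skeletal fibres also use. The cardiac heavy chains are alpha (Myh6), an atrial form in the embryo and the main ventricular form of the adult mouse, and beta (Myh7), the ventricular form of the embryo. In skeletal muscle the fast regulatory light chain is Mylpf, the fast essential light chain Myl1, and the developmental heavy chains are embryonic (Myh3) and perinatal (Myh8). At E11.5 the heart has been beating for days, while the first skeletal fibres are forming in the myotomes of the somites. 3SEQ counts reads from the 3′ ends of transcripts, so RPM is not scaled to gene length, and levels are compared here between embryos and not between genes.

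In mm9, the build the counts were made in, Myh3 (chr11:66891802-66915793) and Myh8 (chr11:67090626-67122136) lie on the plus strand of chromosome 11 with Myh2, Myh1 and Myh4 between them. Myh6 (chr14:55560758-55585764) and Myh7 (chr14:55589525-55613471) lie on the minus strand of chromosome 14, 3760 bases apart. The light chain genes are dispersed: Myl1 is at chr1:66970869-66991978, Myl2 at chr5:122550960-122563481, Myl3 at chr9:110666150-110672308, Myl4 at chr11:104411977-104457067, Myl7 at chr11:5796640-5798785 and Mylpf at chr7:134355122-134357812. Ccdc63 overlaps Myl2 on the opposite strand, as do Gm11665, Gm11661 and Gm11663 at Myl4 and Gm17428 at Myh7. The sources used here do not state whether counting was by strand, so reads of these pairs cannot be told apart.

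The upstream sequences of the 3 skeletal genes whose level rose with stage and of Myl7, which was lower in the older F1 litters, are shown because they differ in the muscle motifs they hold. Each is the 250 bases before the start of the gene in RefSeq (GRCm38.p6), on the gene's strand, with motif matches in capitals. The motifs searched on both strands were CAGCTG (an E-box of the kind bound by Myod1 and Myog), TATAAA, the CArG box bound by serum response factor and the MEF2 site. The window of Mylpf is chr7:127211358-127211607 (plus strand), and its CAGCTG begins 51 bases before the start. The window of Myh3 is chr11:67078050-67078299 (plus), and its TATAAA begins 29 bases before the start. The window of Myh8 is chr11:67276874-67277123 (plus), and its MEF2 site, which begins 99 bases before the start, overlaps a TATAAA on the other strand. The window of Myl7 is chr11:5898783-5899032 (minus), and its CArG box begins 61 bases before the start.
Mylpf: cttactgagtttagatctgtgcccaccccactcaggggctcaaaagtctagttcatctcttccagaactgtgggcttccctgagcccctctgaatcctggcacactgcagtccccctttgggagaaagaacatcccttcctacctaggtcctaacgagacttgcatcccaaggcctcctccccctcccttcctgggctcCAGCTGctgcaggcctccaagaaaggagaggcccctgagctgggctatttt
Myh3: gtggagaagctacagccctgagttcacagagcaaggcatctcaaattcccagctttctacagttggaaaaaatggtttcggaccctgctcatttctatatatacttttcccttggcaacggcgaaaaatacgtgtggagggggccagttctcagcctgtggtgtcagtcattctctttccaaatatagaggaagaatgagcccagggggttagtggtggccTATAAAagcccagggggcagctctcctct
Myh8: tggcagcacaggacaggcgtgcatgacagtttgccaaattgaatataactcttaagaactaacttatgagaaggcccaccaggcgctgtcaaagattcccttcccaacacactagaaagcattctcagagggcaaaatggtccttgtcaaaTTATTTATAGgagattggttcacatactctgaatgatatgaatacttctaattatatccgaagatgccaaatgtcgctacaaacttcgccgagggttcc
Myl7: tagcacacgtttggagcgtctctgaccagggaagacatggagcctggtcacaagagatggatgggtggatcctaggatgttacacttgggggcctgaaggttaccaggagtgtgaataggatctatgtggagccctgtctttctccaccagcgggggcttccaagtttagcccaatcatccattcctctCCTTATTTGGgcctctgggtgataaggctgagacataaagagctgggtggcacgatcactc
Over 32851 such windows of all genes, 13.0% held CAGCTG, 12.4% TATAAA, 1.47% a CArG box and 2.92% a MEF2 site. Among the other members Myl3 had a CArG box beginning 85 bases before the start, Myl1 had a CAGCTG and a TATAAA, Myl2 had both in 1 of its 2 windows and no match in the other, and Myh6, Myh7 and Myl4 had no match in these windows. A match describes the letters only.

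The skeletal members Mylpf, Myh3 and Myh8 rose with stage. Across the 147 N2 embryos with a somite number, the median level of Mylpf was 246 RPM in 21 embryos with 45 somites or fewer, 239 in 45 embryos with 46 to 48, 317 in 67 embryos with 49 to 52 and 420.2 in 14 embryos with 53 or more. Myh3 went from a median of 77.5 RPM in the youngest class to 122, 132 and 185 in the later ones. Myh8, the perinatal form, had class medians of 9.47, 12.3, 18.2 and 25.8 RPM, so that the oldest class stood 2.72-fold above the youngest. Single embryos overlapped widely between classes: Mylpf spanned 102 to 453 RPM in the youngest class and 103 to 534 in the oldest. These trends are drawn in the plot of N2 levels by somite number.

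**Figure D1:**
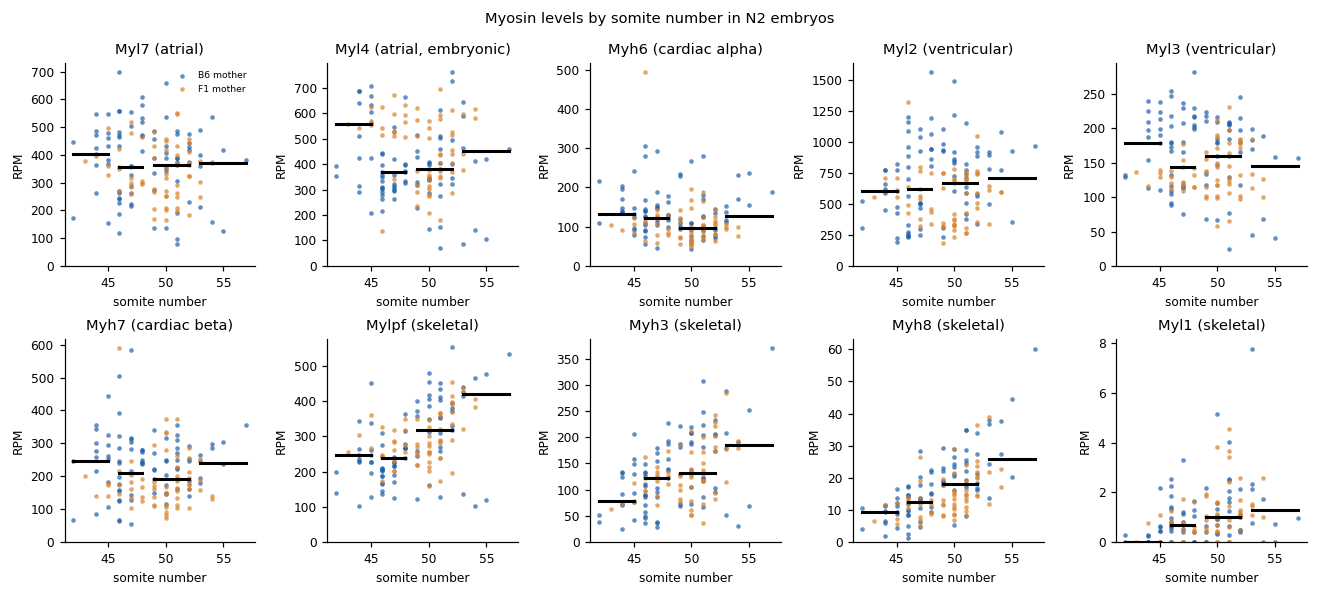
Level of each myosin (RPM, y axis) against somite number (x axis) in the 147 N2 embryos with a somite number, with blue points for B6 mothers, orange points for F1 mothers and black bars for the median of each somite class (45 or fewer, 46 to 48, 49 to 52, 53 or more). The bars of Mylpf, Myh3, Myh8 and Myl1 end higher than they start, as do those of Myl2 (606 to 710.4 RPM, not called), while those of the other cardiac genes show no steady course.

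Of the 9 members with a mean of at least 5 RPM, 3 rose with somite number by Spearman's correlation at a q under 0.05 (Benjamini-Hochberg over 10007 genes) and 0 fell. Over all genes tested, 22% were called, 14.1% rising and 7.97% falling. Spearman's rho was 0.62 for Myh8 (q = 4.2e-14), 0.50 for Mylpf (q = 8.5e-09) and 0.42 for Myh3 (q = 4.2e-06). Pearson's r was 0.64, 0.50 and 0.48, and 0.60, 0.46 and 0.43 after the embryos with 57 and 42 somites farthest from the median were left out. The permutation p was 1e-05 for each of these r and rho, the smallest that 100000 resamples can give. Since embryos of a litter share a mother and nearly a stage, the 147 are not fully independent. Over litter means, Myh8 kept its call (rho = 0.69, q = 0.0072), and Mylpf (rho = 0.53, q = 0.12) and Myh3 (rho = 0.48, q = 0.21) did not.

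Within lanes, and with litter as a random block, the limma slope was 0.14 ± 0.02 log2 units per somite (SE) for Myh8, or 10.3% per somite (q = 2.8e-08). It was 0.09 ± 0.02 for Mylpf, or 6.30% (q = 1.3e-05), and 0.08 ± 0.02 for Myh3, or 5.88% (q = 8.3e-05). Of all genes, 7.35% were called by this test and 4.66% rose. The sign of the trend was positive in 12 of 14 lanes for Mylpf and Myh8 and in 10 of 14 for Myh3. The slopes of embryos with B6 and with F1 mothers were close, at 0.15 ± 0.02 and 0.11 ± 0.04 for Myh8, 0.09 ± 0.02 and 0.09 ± 0.03 for Mylpf, and 0.08 ± 0.02 and 0.09 ± 0.03 for Myh3. The difference F1 minus B6 was -0.04 ± 0.04 for Myh8, the largest of these 3, and no member had an interaction q below 0.90, in a test in which 0.0% of genes were called (0 of 10007, with 514 at an unadjusted p under 0.05).

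Myl1, the fast essential light chain, was near the limit of detection. It had no read in 35 of the 154 N2 embryos and a median of 2 reads, and 3 reads at the median depth correspond to 1.31 RPM. Its class medians were 0, 0.684, 0.997 and 1.28 RPM, with 11 of 21 embryos at 0 in the youngest class and 2 of 14 in the oldest. Without the minimum of 5 RPM, its rho was 0.39 (q = 5.5e-05), and with a minimum of 1 RPM its slope was 0.14 ± 0.04 log2 per somite (q = 0.034).

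In F1, the older litter of each cross had more Mylpf and Myh8 than the younger litter. In B6xCast, Mylpf was at 714, 615 and 610.5 RPM in the older litter and at 309, 288, 353, 354 and 328 RPM in the younger, and in CastxB6 it was at 329, 269, 339 and 385 RPM in the older litter and at 196, 225, 222 and 204 RPM in the younger. In neither cross did the litters overlap. The edgeR log2 fold change was 0.87 ± 0.13 in B6xCast (q = 0.00082) and 0.58 ± 0.12 in CastxB6 (q = 0.0027). For Myh8 the B6xCast values were 30.2, 30.6 and 34.8 RPM against 14.1, 9.93, 16.0, 16.7 and 14.8, and the CastxB6 values were 7.68, 6.44, 7.94 and 10.3 against 1.65, 3.39, 3.57 and 4.18. These did not overlap either, and the change was 1.04 ± 0.23 (q = 0.0087) and 1.29 ± 0.24 (q = 0.0010). Litters that do not overlap and stand higher in the older litter were found for 25% of all genes in B6xCast and 21.9% in CastxB6.

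Myh3 was higher in the older litter of B6xCast and was not called in CastxB6. In B6xCast it was at 174, 188 and 202 RPM in the older litter and at 109.5, 89.1, 111, 104 and 93.9 RPM in the younger, a log2 change of 0.77 ± 0.16 (q = 0.0069). In CastxB6 the older litter had 63.3, 45.4, 68.8 and 78.9 RPM and the younger 47.3, 57.4, 75.6 and 67.7, values that overlap, with a log2 change of 0.00 ± 0.16 (q = 0.99). The difference of the changes between crosses was not tested. Myl1 rose in CastxB6 from 0.782, 0.794, 0.551 and 0.654 RPM to 4.47, 2.39, 4.59 and 4.12, a log2 change of 2.38 ± 0.29 in the fit without the minimum (q = 7.9e-05), on 19 to 131 reads per F1 embryo. In B6xCast it was at 4.03, 3.84 and 3.68 RPM in the older litter and at 3.75, 1.38, 3.57, 2.79 and 3.20 in the younger (log2 change 0.25 ± 0.27, q = 0.60). The 4 litters are drawn in the plot of F1 levels.

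**Figure D2:**
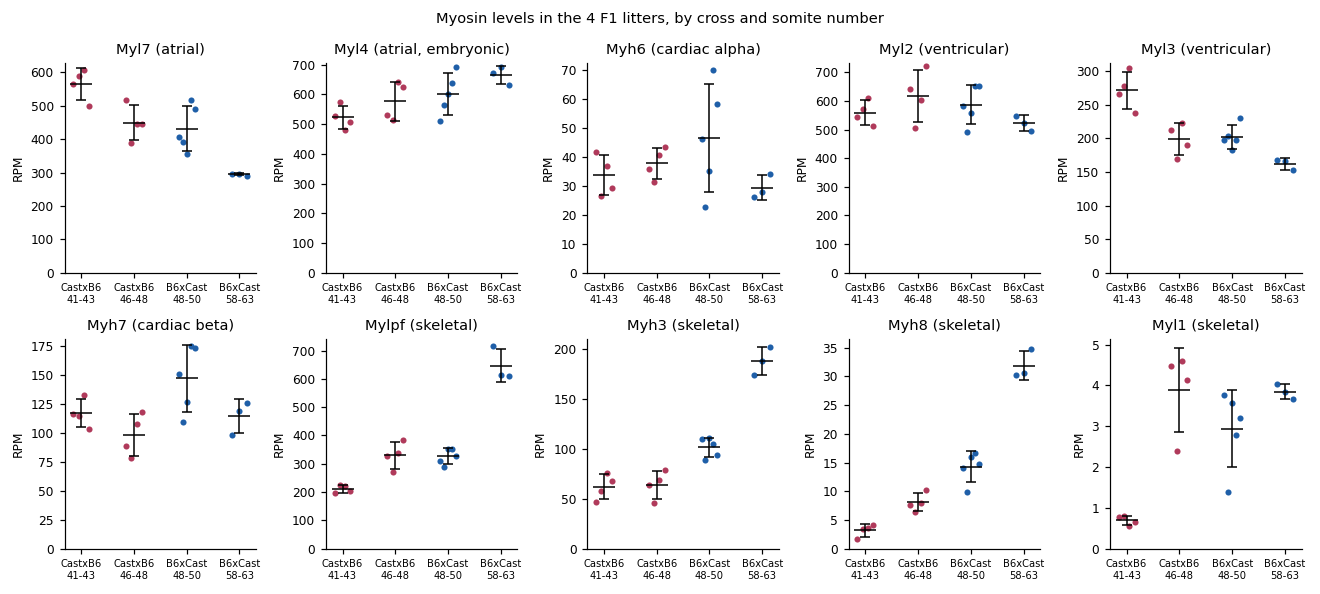
Level of each myosin (RPM, y axis) in the 16 F1 embryos, by litter (x axis, with the cross and the range of somite numbers), with red points for CastxB6, blue points for B6xCast, and the mean ± SD of the litter in black. Mylpf, Myh3 and Myh8 stand highest in the B6xCast litter with 58 to 63 somites, and Myl7 and Myl3 stand lowest there.

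The atrial regulatory light chain Myl7 went the other way in F1. It was at 296, 297 and 290.5 RPM in the older B6xCast litter and at 405, 390.1, 356, 517 and 489.9 RPM in the younger, with no overlap, and fell by 0.67 ± 0.14 on the log2 scale (q = 0.0066). In CastxB6 it was at 518, 389, 445 and 446 RPM in the older litter and at 565, 589, 606 and 498 RPM in the younger. These litters overlap by 1 embryo of each, and Myl7 fell by 0.40 ± 0.14 (q = 0.033). That call was lost when any of 6 of the 8 CastxB6 embryos was left out (all but replicates 4 and 5), with q from 0.057 to 0.079. In N2 the Myl7 medians were 402, 356, 363 and 372 RPM over the 4 somite classes, rho was -0.11 (q = 0.32) and the slope -0.04 ± 0.02 log2 per somite (q = 0.095). With lane regressed out rho was -0.25 (q = 0.038).

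Myl4, the atrial essential light chain, was not called in F1. Its litter means were 665 ± 29.5 RPM (SD, n = 3) in the older B6xCast litter against 602 ± 70.1 (n = 5), and 577 ± 65.7 (n = 4) in the older CastxB6 litter against 523 ± 39.5 (n = 4). The log2 changes were 0.02 ± 0.13 (q = 0.93) and 0.07 ± 0.12 (q = 0.68). In N2 its medians were 557, 368, 382 and 449.8 RPM over the somite classes, and the correlation depended on the lanes. Spearman's rho was -0.05 (q = 0.72) over all embryos and 0.25 (q = 0.032) with lane regressed out, while the slope was 0.02 ± 0.02 (q = 0.58). Lane medians of Myl4 ranged from 153 to 669 RPM.

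Of the ventricular light chains, Myl3 was lower in the older F1 litters and Myl2 was not called. Myl3 was at 168, 166 and 152 RPM in the older B6xCast litter and at 198, 204, 182, 197 and 231 RPM in the younger, and at 212, 169, 223 and 190.1 RPM in the older CastxB6 litter and at 267, 278, 304 and 237 RPM in the younger. Neither pair of litters overlapped, which was so, with the older litter lower, for 7.06% and 7.28% of all genes. Myl3 fell by 0.44 ± 0.12 (q = 0.021) and by 0.52 ± 0.11 (q = 0.0027) on the log2 scale. The B6xCast call was lost without replicate 2, 3 or 8, with q from 0.052 to 0.086. In N2 its medians were 179, 143, 160.1 and 145 RPM, with rho = -0.09 (q = 0.47) and a slope of -0.03 ± 0.01 (q = 0.26). Myl2 had an N2 mean of 657 ± 285 RPM (SD, n = 154), and its F1 litter means lay between 522 and 618 RPM. Its log2 changes were -0.29 ± 0.14 in B6xCast (q = 0.16) and 0.08 ± 0.13 in CastxB6 (q = 0.68), and in N2 its class medians of 606, 618, 669.7 and 710.4 RPM gave rho = 0.11 (q = 0.34).

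The cardiac heavy chains spread widely within the younger B6xCast litter and were not called between F1 litters of a cross. Myh6 was at 26.1, 27.9 and 34.2 RPM in the older B6xCast litter and at 46.2, 22.8, 35.02, 70.1 and 58.3 RPM in the younger, values that overlap (log2 change -0.79 ± 0.30, q = 0.085). Myh7 was at 98.1, 119 and 126 RPM there against 151, 109, 127, 175 and 173 (log2 change -0.49 ± 0.18, q = 0.083). Both passed the threshold when B6xCast replicate 5, the embryo with the lowest Myh6 of that litter, was left out (q = 0.019 and 0.038). In CastxB6 the log2 changes were 0.10 ± 0.28 for Myh6 (q = 0.82) and -0.31 ± 0.17 for Myh7 (q = 0.18). In N2 the slope of Myh6 within lanes was -0.09 ± 0.02 log2 per somite (q = 0.0010, with 2.70% of all genes falling by this test). Myh6 thus fell by 5.78% per somite, with a negative trend in 10 of 14 lanes. Over all N2 embryos its rho was -0.15 (q = 0.19), and its class medians of 131, 122, 97.2 and 127 RPM show no steady course. For Myh7 the slope was -0.04 ± 0.02 (q = 0.30) and the medians were 247, 210.4, 191 and 241 RPM.

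Counted over the members, the older B6xCast litter was higher in 3 (Mylpf, Myh3, Myh8) and lower in 2 (Myl7, Myl3) of the 9 tested, where 7.52% and 8.43% of all genes were called in those directions and 16.0% in either. The older CastxB6 litter was higher in 2 (Mylpf, Myh8) and lower in 2 (Myl3, Myl7), where the shares of all genes were 19.2% and 16.6%, and 35.8% in either direction. The member counts in CastxB6 are thus near the background. The median log2 change of the 9 members was -0.29 and 0.07, against 0.04 and -0.02 for all genes. Scaling by library size in place of TMM factors moved the median of all genes in the B6xCast comparison from 0.04 to 0.16, and the calls from 732 higher and 820 lower to 1260 and 395. In CastxB6 they moved from 1871 and 1613 to 2324 and 1007. Under library size the change of Mylpf in B6xCast was 0.99 and that of Myl7 -0.55, and the numbers of members called, 5 and 4, were the same. Blood markers moved with the litters: the sum of 5 such genes, globins among them, was 27208 to 36950 RPM in the older B6xCast litter and 71578 to 89708 in the younger, and 53581 to 66636 in the older CastxB6 litter and 98460 to 133011 in the younger. Their part in the myosin values was not tested. With 1 litter per stage and cross, litter and stage cannot be told apart, and of the 2 runs of each embryo in the older CastxB6 litter only 1 was shared with the other litters.

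**Figure D3:**
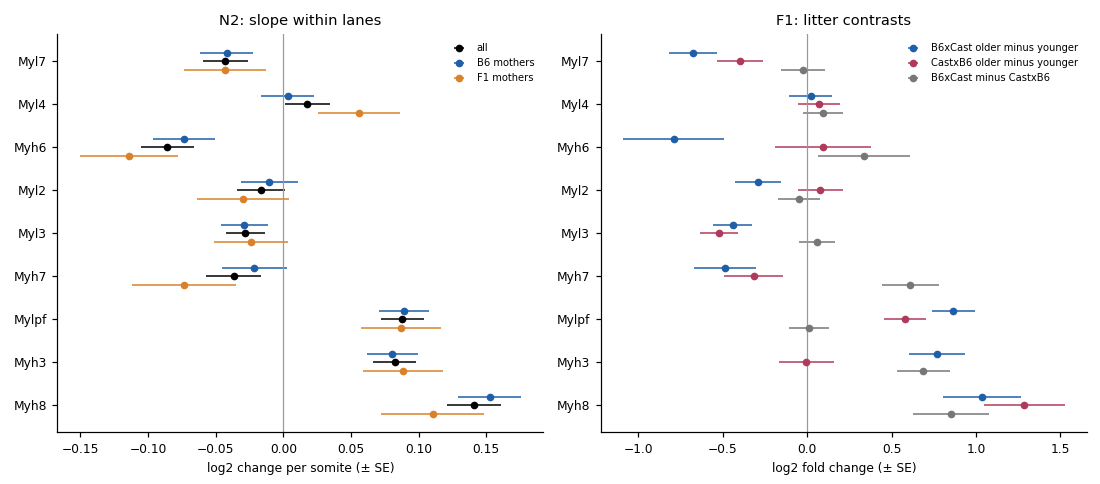
Left, log2 change per somite (± SE) in N2 embryos, for all mothers (black), B6 mothers (blue) and F1 mothers (orange). Right, edgeR log2 fold change (± SE) between F1 litters, for the older against the younger B6xCast litter (blue), the older against the younger CastxB6 litter (red) and the B6xCast litter with 48 to 50 somites against the CastxB6 litter with 46 to 48 (grey). Mylpf and Myh8 lie to the right of 0 for every stage comparison, Myl7 and Myl3 to the left, and Myh3 is at 0.00 for CastxB6.

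The litters nearest in stage across the crosses, B6xCast with 48 to 50 somites and CastxB6 with 46 to 48, which also enter the comparisons above, differed in 3 of 9 members, all higher in B6xCast. Over all genes 16.2% were called, 7.55% higher and 8.63% lower (by library size, 493 higher and 923 lower of 1416 called, against 734 and 840 of 1574). Myh3 was higher by 0.69 ± 0.16 on the log2 scale (q = 0.011), and the litters, with values given above, did not overlap, as for 6.71% of all genes in that direction and 9.25% in the other. Myh8 was higher by 0.85 ± 0.22 (q = 0.020), and Myh7, at 88.6, 78.7, 108 and 118 RPM in CastxB6, by 0.61 ± 0.17 (q = 0.024), both with overlapping litters. Without CastxB6 replicate 5 or 6, Myh3 was the only call left. Mylpf did not differ detectably (0.01 ± 0.12, q = 0.97), nor did Myl7 (-0.02 ± 0.13, q = 0.92), Myl2 (-0.05 ± 0.13, q = 0.84), Myl3 (0.06 ± 0.11, q = 0.75), Myl4 (0.09 ± 0.12, q = 0.62) or Myh6 (0.34 ± 0.27, q = 0.42). The B6xCast litter was on average further on in somites, and the litters also differed in their sequencing runs. Cross, litter, stage and run thus cannot be told apart.

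Ratios of paired forms within an embryo do not depend on library size. They are ratios of reads, not of molecules, and are given without a test. The F1 litters are ordered by somite number, which also places both CastxB6 litters before both B6xCast litters. Stage, cross and litter thus cannot be told apart in this order. The ratio of atrial to ventricular regulatory light chain (Myl7 to Myl2) had a median of 1.01 in the CastxB6 litter with 41 to 43 somites, 0.754 and 0.751 in the litters with 46 to 48 and 48 to 50, and 0.567 in the litter with 58 to 63. The first litter did not overlap the next (0.975 to 1.04 against 0.618 to 0.806), nor the last the younger B6xCast litter (0.540 to 0.589 against 0.639 to 0.795). In N2 the median went from 0.699 in the youngest class to 0.464 in the oldest, with ranges of 0.422 to 1.68 and 0.203 to 0.725. The essential light chains moved in the opposite direction in F1, Myl4 to Myl3 being 2.02, 2.95, 3.01 and 4.16 in the same order of litters. The same pairs of litters did not overlap for this ratio either (1.58 to 2.13 against 2.49 to 3.28, and 4.01 to 4.16 against 2.58 to 3.30). However, the N2 class medians of 3.16, 2.88, 2.48 and 2.72 showed no rise.

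The embryonic to perinatal heavy chain ratio (Myh3 to Myh8) was 19.1 in the youngest F1 litter, 7.96 and 6.92 in the middle litters and 5.80 in the oldest. In N2 it was 10.9, 9.12, 8.14 and 6.75 over the somite classes. The ratio of skeletal to ventricular regulatory light chain (Mylpf to Myl2) was 0.378, 0.535 and 0.544 in the first 3 F1 litters and 1.24 in the oldest, the only litter in which Mylpf reads exceeded Myl2 reads in every embryo. The alpha to beta ratio (Myh6 to Myh7) followed no such order, at 0.280, 0.387, 0.307 and 0.266 in F1 and 0.595, 0.591, 0.505 and 0.590 in N2. The N2 mean of Myh6 was 124 ± 59.1 RPM (n = 154) against 37.9 ± 12.4 (n = 16) in F1, a ratio of 3.28, while the other 8 members above 5 RPM had N2 means of 0.722 to 1.80 times those in F1. The generations were sequenced and tabulated separately, and this difference was not tested.

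**Figure D4:**
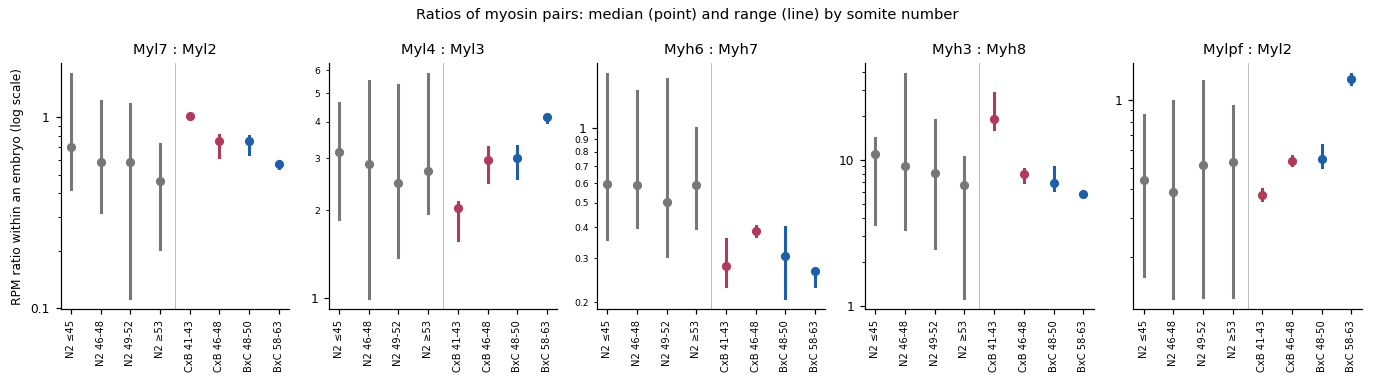
Ratio of the RPM of paired myosins within an embryo (y axis, log scale), as the median (point) and range (line) of each N2 somite class (grey), CastxB6 litter (red, CxB) and B6xCast litter (blue, BxC), with somite numbers on the x axis. Myl7 to Myl2 and Myh3 to Myh8 decline from the youngest to the oldest F1 litter, Myl4 to Myl3 and Mylpf to Myl2 increase, and Myh6 to Myh7 does neither.

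Other genes of the sarcomere, a list of 47, were taken through the same comparisons. In N2, 18 of the 32 tested rose with somite number and 2 fell (14.1% and 7.97% of all genes), with a median rho of 0.29 against -0.02 over all genes. Those with the largest rho were Mybph, a myosin-binding protein of skeletal muscle (0.70, q = 6.0e-20), Tnnt1, slow skeletal troponin T (0.69, q = 7.0e-19), and Actn2, the alpha-actinin of the Z-disc (0.61, q = 1.1e-13). The fallers were Pln, the phospholamban that restrains the cardiac calcium pump (-0.26, q = 0.011), and Mybpc3, the cardiac myosin-binding protein C (-0.25, q = 0.014). By the slope within lanes, 14 rose and 1 fell (4.66% and 2.70% of all genes), the latter again Mybpc3 (-0.07 ± 0.02 log2 per somite, q = 0.00087), and Mybph (0.16 ± 0.02), the fast calcium pump Atp2a1 (0.15 ± 0.02) and the cardiac calsequestrin Casq2 (0.14 ± 0.03) rose most. In the older B6xCast litter, 18 of 33 were higher and 0 lower (7.52% and 8.43% of all genes), led by Sln, sarcolipin (1.45 ± 0.17), Tnni2, fast troponin I (1.26 ± 0.15), and Mybpc1, slow myosin-binding protein C (1.13 ± 0.23), and the median was 0.62. In the older CastxB6 litter, 11 were higher, led by Tnnt1 (1.39 ± 0.15), Tcap (1.03 ± 0.19) and Myoz2 (0.87 ± 0.16), and 7 lower, led by Actc1, cardiac actin (-0.84 ± 0.10), Atp2a2, the cardiac calcium pump (-0.77 ± 0.16), and Csrp3 (-0.68 ± 0.19). Of all genes, 19.2% were higher and 16.6% lower there, so that the count of lower sarcomere genes is near the background. In the nearest litters across the crosses, 7 were higher in B6xCast, led by Mybph (0.95 ± 0.18), Actn2 (0.71 ± 0.11) and Sln (0.66 ± 0.17), and 0 lower (7.55% and 8.63% of all genes). By the mother's genotype, 4 of 32 were higher under B6 mothers and 0 lower (0.75% and 4.28% of all genes), led by Des (0.69 log2), Tnni1 (0.45) and Tnnc1 (0.45). By genotype at the gene, 1 of 32 was higher (Tnnt3, 0.40) and 1 lower (Mybph, -0.36) in heterozygous embryos. Of all genes, 9.77% were higher and 8.48% lower, so that these counts are below the background.

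Of the other myosins, 14 were in the table. The adult fast heavy chains Myh1, Myh2 and Myh4, which lie between Myh3 and Myh8, had N2 means of 0.413, 0.106 and 0.528 RPM, and the extraocular Myh13, Myh15 and the smooth muscle Myh11 were likewise at or below 1.03 RPM. Of 8 other myosins tested in N2, Myl6b (rho = 0.41, q = 5.9e-06), Myh7b (0.39, q = 3.8e-05) and Myl6 (0.25, q = 0.016) rose and the non-muscle heavy chain Myh9 fell (-0.27, q = 0.0073). Over all genes, 14.1% rose and 7.97% fell by this test. By the slope within lanes 0 of the 8 were called, against 7.35% of all genes. Of 7 tested in F1, Myl6b, an essential light chain of slow muscle and non-muscle cells, was also higher in the older CastxB6 litter (1.46 ± 0.23, q = 0.00036), as was Myl9 (0.38 ± 0.10, q = 0.0076). Of all genes, 19.2% were higher there. In the nearest litters across the crosses Myh7b was higher in B6xCast (0.64 ± 0.15) and Myl12b lower (-1.26 ± 0.29). Of all genes, 7.55% were higher and 8.63% lower in that comparison, so that these F1 counts are near the background.

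Markers of the tissues in which these forms are used were measured beside them. The summed level of 8 skeletal muscle markers had medians of 74.2, 97.9, 141 and 152 RPM over the N2 somite classes. By the correlation with somite number, all 4 of those tested (Chrng, Myog, Tnnt3, Myod1) rose, where 14.1% of all genes rose and 7.97% fell. In F1 this sum was 57.9 to 88.5 RPM in the youngest litter and 232 to 265 RPM in the oldest. The 9 cardiac markers had median sums of 569.9, 486, 459 and 534 RPM in N2, and 0 of the 5 tested were called by the correlation. By the slope within lanes 1 of the 5, Gata5, fell, as did 2.70% of all genes. Of the 5 atrial markers tested, Nppa (rho = -0.29, q = 0.0042) and Nr2f1 (-0.26, q = 0.010), a gene of many tissues, fell, and 0 of 1 ventricular marker tested (Irx3) was called. Among these, the slope within lanes called Nr2f1 alone. Liver markers also rose, 4 of 4, from a median sum of 606 to 1072 RPM. The 3 extra-embryonic markers in the table had a median sum of 0 RPM in every class. In a whole embryo more cells of a type and more RNA per cell cannot be told apart, and the part of cell numbers in the myosin values was not tested.

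The mother's genotype made no call among the members. By the Mann-Whitney test with Bonferroni adjustment over 9733 genes, 0 of 9 members passed an adjusted p of 0.01, where 5.03% of all genes did, 0.75% higher and 4.28% lower under B6 mothers. The lowest adjusted p were 0.26 for Myl3 and 0.47 for Myh7. Myl3 was at 171 ± 54.3 RPM (SD, n = 89) with B6 mothers and 140.4 ± 37.1 (n = 65) with F1 mothers, and Myh7 at 239 ± 90.7 and 189.6 ± 85.8. Unadjusted, the p was under 0.05 for Myl2, Myl3, Myl4, Myl7, Myh6 and Myh7, with Myl4 lower and the other 5 higher under B6 mothers, and the skeletal Mylpf was at 287 ± 110 and 291 ± 68.4 RPM (p = 0.48). Myh3 was at 138 ± 70.9 and 131 ± 50.8 RPM (p = 0.68) and Myh8 at 17.8 ± 10.1 and 14.8 ± 6.79 RPM (p = 0.062). Benjamini-Hochberg adjustment called 4 at a q under 0.01 (Myl2, Myl3, Myh6, Myh7), where 21.3% of all genes were called. At a q under 0.05 and with somite number as a covariate, edgeR called 5 (Myl2, Myl3, Myl4, Myh7, Myh8) beside 30.6% of all genes, and DESeq2 called these and Myh6 beside 33.8%. However, the model with litter as a random block called 0 (also 0 of all genes), with Myl3 at 0.17 ± 0.19 log2 (q = 0.96) and Myh7 at 0.28 ± 0.20 (q = 0.75). Within the first flowcell Myl3 was higher under B6 mothers by 0.50 log2 (adjusted p = 2.7e-05) and within the second by 0.30 (adjusted p = 1.0). Mothers lay in different litters and, but for 1 lane, in different lanes, and the median somite number was 48 under B6 and 50 under F1 mothers, so that these cannot be told apart.

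No member was called for a difference between its alleles. The B6 allele fraction (BAF), the share of B6 among allele votes, could be tested for 8 members, since Myl1 and Myh6 had too few votes. By the paired test of the study's methods (Bonferroni-adjusted p under 0.01 and BAF outside 0.45 to 0.55), 0 of 8 were called, against 18.9% of 9084 genes. By the adjusted p alone, 23.2% of all genes passed, and Myh3 and Myh7 did among the members. Myh3 leaned to Cast, its BAF being 0.458 pooled over 90 embryos (adjusted p = 7.3e-07). It was below 0.5 in 16 of 16 F1 embryos (0.402 to 0.476, mean 0.444 ± 0.021 SD), and in 54 of 72 heterozygous N2 embryos (0.474 ± 0.038). With F1 embryos alone its BAF of 0.447 fell just outside the window and it was called (adjusted p = 0.0025). Myh7 leaned slightly to B6, its pooled BAF being 0.517 (adjusted p = 0.00029), at 0.511 ± 0.019 in F1 and 0.524 ± 0.036 in 86 N2 heterozygotes. Myh8 was below 0.5 in 16 of 16 F1 embryos (0.423 ± 0.062) but in 24 of 50 N2 heterozygotes (0.494 ± 0.097), and its adjusted p was 1.0. The light chains Myl3, Myl4, Myl7 and Mylpf had pooled BAF of 0.501, 0.502, 0.489 and 0.485, and Myl2, on few votes, 0.544. In N2 embryos called B6/B6 at the gene the BAF of every member was 0.997 or higher.

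The allele fraction of no member was called against stage. Of the 7 members with at least 20 embryos of 20 votes, 0 passed a q of 0.1 for a correlation with somite number, where 0.299% of 3342 genes did. Myl4 came nearest, with rho = 0.40 over 70 embryos (p = 0.0006, q = 0.14). Its class means were 0.460 ± 0.058 (SD, n = 10), 0.509 ± 0.060 (n = 22), 0.529 ± 0.044 (n = 34) and 0.536 ± 0.025 (n = 4). With embryos of 10 votes or more it was called (rho = 0.44, q = 0.056), and with lane regressed out rho was 0.13 (q = 0.92). For the other members rho was 0.03 (Myl3), 0.07 (Myl7), -0.15 (Mylpf), 0.12 (Myh3), 0.02 (Myh7) and 0.06 (Myh8). In F1 its BAF was 0.506 and 0.486 in the older and younger B6xCast litters and 0.478 and 0.5003 in the older and younger CastxB6 litters. Between F1 litters 0 of the 7 members tested (all but Myl1, Myl2 and Myh6) were called in any of the 3 comparisons, where 0.0526%, 1.67% and 1.02% of 5703 genes were. The largest difference was that of Myh8, with 0.483 in the older and 0.419 in the younger B6xCast litter (quasi-binomial p = 0.013 in a fit of each gene by itself, q = 0.47 over all genes).

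**Figure D5:**
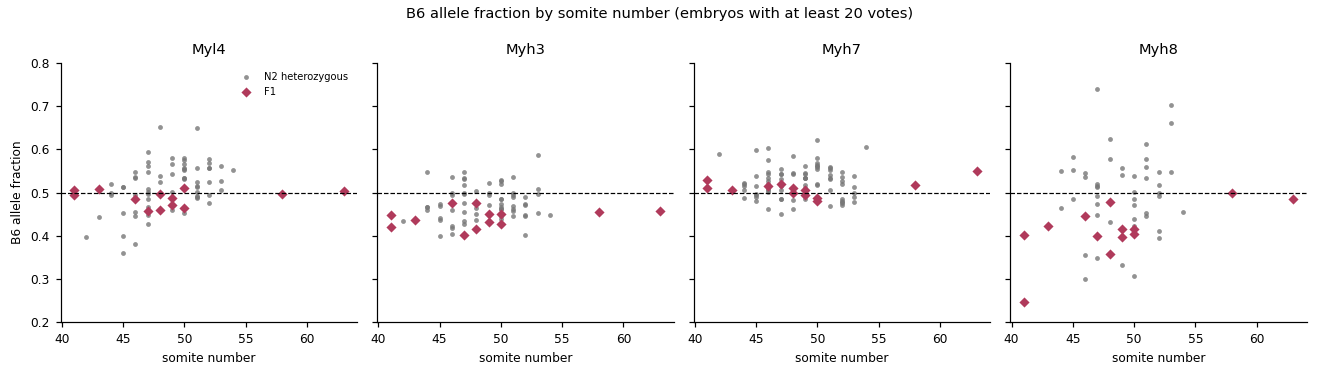
B6 allele fraction (y axis) against somite number (x axis) of Myl4, Myh3, Myh7 and Myh8 in heterozygous N2 embryos (grey) and F1 embryos (red diamonds) with a somite number and at least 20 votes, with the dashed line at 0.5. All F1 values of Myh3 and Myh8 lie below the line, and N2 values of Myl4 are lower in the youngest embryos than in the rest.

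Expression by genotype at the gene itself was called for 1 member, in the reported fit alone. Myl2 was lower in embryos heterozygous at the gene, at 582 ± 265 RPM (SD, n = 71) against 711 ± 289 (n = 75) in B6/B6 embryos, a log2 difference of -0.21 after lane and somite number were regressed out (rank-sum q = 0.0066, with 8.48% of all genes lower and 9.77% higher at a q under 0.01, or 18.2% in all). Under B6 mothers the difference was -0.24 (q = 0.040) and under F1 mothers -0.19 (q = 0.14), both short of the threshold of 0.01. The call was also lost in plain RPM (-0.32, q = 0.053) and with 15 principal components regressed out, where the difference shrank to -0.09 (q = 0.018). The pooled BAF of Myl2 leaned to B6 (0.544), the same direction as its lower level in heterozygous embryos, but without a call (adjusted p = 1.0). Ccdc63 overlaps the gene. The log2 differences of the other 8 members tested ran from -0.04 for Myh7 to 0.08 for Myh8 and 0.09 for Myh3, with Myl3, Myl4, Myl7, Mylpf and Myh6 between.

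Across the 154 N2 embryos, with lane regressed out and no test, the levels of the 3 skeletal members varied together, with rho of 0.69 for Mylpf and Myh3, 0.64 for Myh3 and Myh8 and 0.58 for Mylpf and Myh8. The 15 pairs of cardiac members had, on this scale, a median rho of 0.36, the highest being that of the neighbours Myh6 and Myh7 (0.74), and the 18 pairs across the groups a median of 0.03. The separation of cardiac pairs from pairs across the groups depended on the regression: without it the medians were 0.32 and 0.33, and with somite number regressed out too they were 0.36 and 0.15. The highest rho across the groups were those of Myl4 with Mylpf (0.60) and with Myh3 (0.48), and its rho to Myl3 was 0.51. Myl4 was not alone in this, since Myh7 had rho of 0.34 to Myh3 and 0.24 to Myh8, but 0.01 to Mylpf. With somite number regressed out too, these rho of Myh7 were 0.47, 0.42 and 0.10. Of 10007 genes, the nearest to Mylpf were Tmem176b (0.82), Krt14 (0.76) and Lgals1 (0.75), to Myh3 Slc22a17 (0.75), Eln (0.73) and Sez6 (0.69), and to Myh8 Lmna (0.65), Myh3 (0.64) and B3gat1 (0.63). The nearest to Myh6 were Myh7 (0.74), Smarca4 (0.69) and Arhgef2 (0.66), and to Myh7 Smarca4 (0.75), Myh6 (0.74) and Upf1 (0.71). The ventricular Myl2 was nearest to Ndufa11 (0.69), 2410015M20Rik (0.68) and Ict1 (0.67), and Pkmyt1 (0.61) and Pmf1 (0.61) were among the nearest to Myl3. The atrial Myl7 was nearest to D8Ertd738e (0.74), Psmb6 (0.69) and Pgls (0.68), and Myl4 to Gnb2l1 (0.75), Tymp (0.73) and Snord12 (0.69). These embryos share lanes, depth and stage, and rho with the number of reads was 0.43 for Myh3, 0.40 for Myl3 and between -0.15 and 0.20 for the other 8.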

How the data were processed

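Whole E11.5 embryos were profiled by 3SEQ. The authors trimmed poly(A), mapped reads with Bowtie2 to mm9 and to a Cast version of it with RefSeq transcripts, discarded reads with a near-equal second hit, and deposited raw counts on exons per gene. They also deposited allele votes, which are estimated counts (expected counts that need not be whole), and genotype codes per gene, used as a score that names B6/B6 or heterozygous. Repeat runs of an F1 embryo are 1 column. Of the N2 columns, 8 had no group in the labels and were not used. Of the other 160 N2 embryos, the 154 with genotypes were analysed.

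Counts were divided by the reads on genes to give RPM. F1 litters were compared by edgeR 4.0.16 (quasi-likelihood, TMM, all 16 embryos in the fit), N2 slopes by limma 3.58.1 (voom), and correlations and rank tests by scipy 1.17.1. DESeq2 1.42.0 was an alternative. Genes needed a mean of 5 RPM, and allele tests 20 votes. Votes were rounded for the quasi-binomial model. Every q and adjusted p was taken over all genes tested, while the permutation p and those called unadjusted were not. The main tests were tried on simulated data, but the slope by mother, the permutations and the outlier limit were not. Results cover every member with enough reads or votes for the test, and the 3 largest calls in each direction of a sarcomere list. The members and lists were chosen with earlier results of these data known. Embryos were numbered within a litter, and p-values measure the spread between embryos. Proteins were not used here. For Myl3, 1 of the nearest genes is not reported here.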

Additional observations from a re-analysis of the deposited data

Results flagged for a closer look

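In each F1 litter of 4 or 5 embryos, the gap of the highest or lowest embryo to its neighbour was compared with the range of the litter. Among 53 such litter values of the members, 30 of RPM and 23 of BAF, 2 of BAF and 0 of RPM stood apart by Dixon's 95% limit. About 1 in 20 would do so by chance. Myl7 had a BAF of 0.533 in CastxB6 replicate 8, the highest of its litter, with the next embryo at 0.478. Myh8 had a BAF of 0.479 in B6xCast replicate 7, with the next embryo of the younger B6xCast litter at 0.416.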

How the results depend on the processing

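Of 930 member values recomputed under alternatives, 795 kept their direction and side of the threshold, 81 changed sign with neither value past it, 26 passed it newly, 22 no longer passed, 1 reversed and 5 had no counterpart. The reversal was Myl4 against somite number, with a rho of 0.25 with lane regressed out. The cause was not tested. Members called against somite number were 6 with lane regressed out and 1 over litter means, in place of 3. Members called for the mother were 4 by Benjamini-Hochberg, 1 within the first flowcell, 5 by edgeR and 6 by DESeq2, in place of 0. Allele-specific calls were 1 in F1 embryos only, in place of 0, and BAF calls against somite number 1 with 10 votes, in place of 0. By genotype, 0 in place of 1 were called in plain RPM (Myl2 at -0.32, q = 0.053), with B6 mothers only, with F1 mothers only or with 15 principal components (-0.09, q = 0.018). Leaving out an embryo gave 4 to 7 calls for B6xCast stage, 3 to 4 for CastxB6 stage and 1 to 3 between crosses (lowest without CastxB6 replicate 5 or 6), and 0 for BAF throughout. No paired analysis was possible because embryo numbers only count embryos within a litter.

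Over all genes, calls against somite number were 2206, but 1151 with lane regressed out, 174 over litter means, 5161 with B6 mothers and 3920 within the second flowcell, and slope calls were 736, but 1161 without the litter block. Mother calls were 490, but 2077 by Benjamini-Hochberg, 2975 by edgeR, 3285 by DESeq2, 212 and 24 within flowcells, and 0 over litter means, lane means or with a litter block. Allele-specific calls were 1714, but 1105 in F1 only and 2889 by Benjamini-Hochberg. BAF calls against somite number were 10, but 17 with 10 votes, 5 with 50, 2 with lane regressed out, 63 with B6 and 2 with F1 mothers. Genotype calls were 1776, but 1087 in plain RPM, 894 and 964 by mother and 2728 with principal components. B6xCast stage calls were 1552, but 2390 from the 2 litters alone, 609 without replicate 2, 662 without replicate 3 and 937 without replicate 8. Calls between crosses were 1574, but 837 without B6xCast replicate 6 and 920 without CastxB6 replicate 5. BAF calls between litters were 3, 95 and 58, and fell to as few as 0, 31 and 31 without an embryo.

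At 245220 to 5370322 reads per N2 embryo, Myl1 had a median of 2 reads, under the detection limit of 3, and at most 12.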
